A study of Mus musculus with 21 samples.

Results

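The 9 genes followed through the series serve the adhesion of basal keratinocytes to the basement membrane: the integrin genes Itga6, Itgb4, Itga3 and Itgb1, Col17a1, the plakin genes Dst and Plec, and the laminin genes Lama3 and Lamb3. They were taken by name, all 9 were found once each among the 49315 genes of the count tables, and all 9 were among the 17755 genes tested. Itga3 and Itgb1 encode a laminin-binding integrin of focal contacts rather than a hemidesmosome subunit.

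RNA of mouse epidermal sheets was sequenced after depletion of ribosomal RNA. The series had 7 groups of 3 samples, but 13 of its 15 files from 3 weeks of age list every gene at 0, so that 8 libraries could be used. At 6 months these were 3 libraries of a strain-specific control with the genotype WT and 3 labelled K14CreTfap2afl/flTfap2bfl/fl, in which both AP-2 genes, Tfap2a and Tfap2b, are floxed and Cre is driven by the Krt14 promoter, which is active in basal keratinocytes. At 3 weeks there were 2 libraries labelled K14CreTfap2bfl/fl, in which Tfap2b alone is floxed, and they had no control of their age. Whether the controls carry floxed alleles or Cre is not given in the labels, and neither is whether any library pools animals. The p-values measure the spread between these libraries.

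The libraries held 11318181 to 17746284 counts, and the members 1404 to 67641 counts in each library, so counting error was small against the spread between libraries. Tfap2a was at 140.3 to 210.1 counts per 1000000 counts (CPM) in the controls and 213 to 309 CPM under the double knockout label, and Tfap2b at 57.3 to 86.6 and 53.8 to 57.2 CPM, with 44.9 and 71.7 CPM in the 3-week libraries labelled Tfap2b knockout. Neither passed the test (edgeR adjusted p 0.118 and 0.111), so that the deletion cannot be read from counts over whole genes, and the group is called dKO-labelled (for double knockout) throughout. Control replicates 1 and 2 stood apart: odorant and vomeronasal receptor genes held 1.61 and 3.19 counts per exonic kb there, against 0.0971 to 0.195 in the other 6 libraries. Scaled to exon length, this background came to at most 1.5% of a member's counts (Lamb3 in control replicate 2).

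Hemidesmosomes fix the keratin network of basal keratinocytes to the basement membrane. Outside the cell, the integrin formed by the Itga6 and Itgb4 products and the transmembrane collagen XVII (Col17a1) bind laminin 332. Inside, the plakins plectin (Plec) and the epithelial form of dystonin (Dst, also called BP230 or BPAG1) link them to keratins 5 and 14. The integrin formed by the Itga3 and Itgb1 products binds the same laminin but connects to actin through talins and kindlins. Inherited loss of several of these proteins causes skin blistering.

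AP-2 proteins bind GC-rich palindromes, so the bases upstream of the members were read for them. RefSeq promoter windows on GRCm38.p6 were at hand for 5 of the 9 members, as 8 windows, and the 250 bases before each start were searched. Those members were Col17a1, Dst, Itga3, Itgb1 and Lamb3, while Itga6, Itgb4, Plec and Lama3 had no window and were not searched. The motif GCCNNNGGC was found in none of the 8 windows, against 13.7% of 32851 windows of that length over all genes. Its form with a longer spacer, GCCNNNNGGC, was found in 1 window each of Itgb1 and Dst, against 12.3% of all windows, and the AP-1 motif TGANTCA in none, against 6.75%. Each motif reads the same on both strands, and no 2 matches overlapped. The windows with a match and that of Col17a1, the member with the highest level, are shown 5′ to 3′ on the gene's strand, with the match in capitals. That of Itgb1 (chr8:128685404-128685653, plus strand) has its match starting 154 bases before the start, and that of Dst (chr1:34011345-34011594, plus strand) 79 bases before it. Dst has a second window, without a match, and the counts do not tell which start was used. For Col17a1 (chr19:47692095-47692292, minus strand) the 52 bases of the window that lie in an annotated exon are left out.
Itgb1: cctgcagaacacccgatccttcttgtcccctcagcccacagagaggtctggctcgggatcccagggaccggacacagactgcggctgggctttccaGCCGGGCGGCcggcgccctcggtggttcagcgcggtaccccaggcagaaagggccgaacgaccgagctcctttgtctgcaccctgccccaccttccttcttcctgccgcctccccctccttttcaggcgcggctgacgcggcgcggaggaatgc
Dst: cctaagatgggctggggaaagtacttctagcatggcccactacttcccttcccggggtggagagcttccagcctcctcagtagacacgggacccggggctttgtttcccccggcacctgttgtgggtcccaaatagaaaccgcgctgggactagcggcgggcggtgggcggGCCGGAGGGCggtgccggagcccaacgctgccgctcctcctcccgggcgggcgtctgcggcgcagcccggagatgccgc
Col17a1: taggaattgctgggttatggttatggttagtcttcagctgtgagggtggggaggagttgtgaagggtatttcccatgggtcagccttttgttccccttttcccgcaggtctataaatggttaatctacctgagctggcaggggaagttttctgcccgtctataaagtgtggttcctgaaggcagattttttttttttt
A match is a stretch of letters, and its use was not measured.

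At 6 months the comparison asked whether these adhesion genes differ in epidermis in which both AP-2 genes are targeted. Of the 9 members 6 rose in the dKO-labelled libraries (Itgb4, Itga6, Col17a1, Lama3, Dst and Itgb1) and none fell, at fitted increases of 1.45- to 1.97-fold. Itga3, Plec and Lamb3 also had higher means but did not pass the test. For 8 of the 9 genes every dKO-labelled library lay above every control, the exception being Lamb3. Among all genes tested, 6.26% were called higher, 8.59% lower, 14.9% in either direction, 38.7% had groups that did not overlap, and in 22.5% these had the dKO-labelled libraries higher. The median log2 fold change was 0.57 over the 9 members and -0.04 over all genes tested. In bulk tissue a larger share of basal cells and more RNA per basal cell cannot be told apart.

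**Figure D1:**
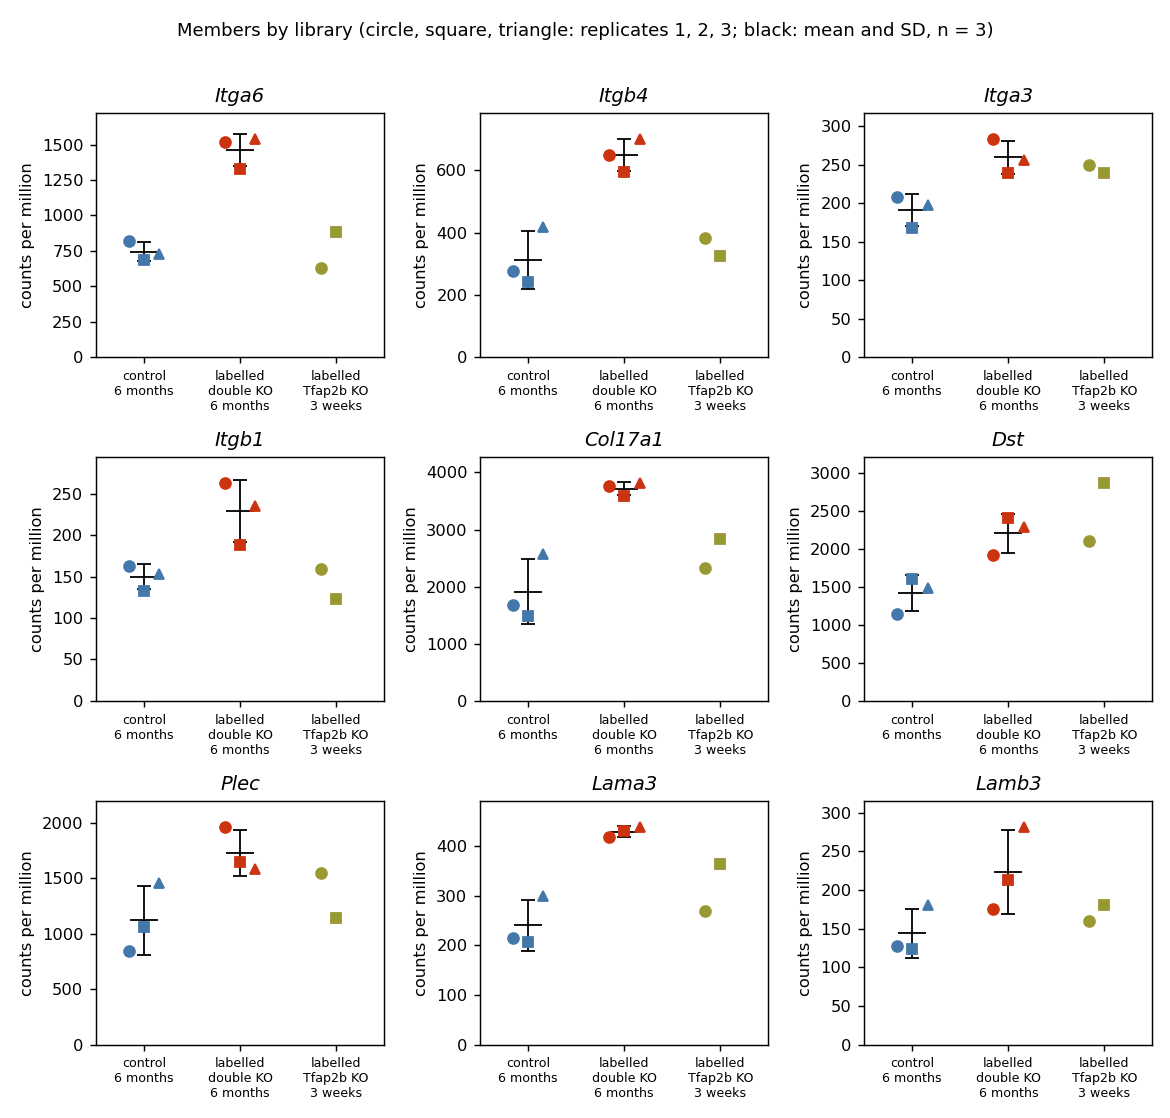
CPM of each member in the 8 libraries with counts, by group on the x axis, with 1 symbol per library and, at 6 months, the mean and SD of 3. In 8 of the 9 panels the red points (dKO-labelled) all lie above the blue ones (control), and control replicate 3, the blue triangle, is the highest control for Itgb4, Col17a1, Plec, Lama3 and Lamb3.

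The gene of the laminin-binding α6 subunit, Itga6 (ENSMUSG00000027111, GRCm38 chromosome 2, 71745616 to 71858416, plus strand), was at 817, 687 and 729.7 CPM in control replicates 1 to 3 and at 1521, 1331 and 1536 CPM in the dKO-labelled libraries. The groups lay far apart, and the 3 controls were close to each other. Itga6 rose by 0.90 on the log2 scale (SE 0.14, edgeR adjusted p 0.00408). It was called in all 16 alternative analyses, at 0.83 to 1.01, with adjusted p-values of 1.24e-07 to 0.0386.

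Its partner in the hemidesmosome integrin, Itgb4 (ENSMUSG00000020758, chromosome 11, 115974709 to 116008412, plus strand), had 275, 243 and 418 CPM in controls against 648, 596 and 699 CPM in dKO-labelled libraries. Control replicate 3 was well above the other controls, yet below all 3 of the other group. Itgb4 rose by 0.98 on the log2 scale (SE 0.19, edgeR adjusted p 0.0118), and 7.66% of its exonic bases overlap B230344G16Rik on the opposite strand. Without dKO-labelled replicate 1 it was 1.03 and no longer past the threshold, and with control replicate 3 as the only control it was 0.58, again not past it.

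Col17a1 (ENSMUSG00000025064, chromosome 19, 47646344 to 47692094, minus strand), for collagen XVII, had 1678, 1493 and 2569 CPM in controls against 3755, 3586 and 3812 CPM in dKO-labelled libraries. The controls had a coefficient of variation of 30.1% and the other group one of 3.16%, and control replicate 3 lay well above the other controls. Col17a1 rose by 0.89 on the log2 scale (SE 0.19, edgeR adjusted p 0.0178). The call was lost without control replicate 1 (0.81) or 2 (0.74), without both (0.48), and without dKO-labelled replicate 1 (0.92).

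Of the intracellular linkers, Dst (ENSMUSG00000026131, chromosome 1, 33908225 to 34308661, plus strand) had 1152, 1614 and 1489 CPM in controls against 1924, 2416 and 2298 CPM in dKO-labelled libraries. The fitted change came to 0.57 (log2, SE 0.17, edgeR adjusted p 0.0460), just past the threshold. Dst kept this call in 6 of 16 alternatives. It was lost without control replicate 1 (0.45) or 2 (0.68) or both (0.52), and without any single dKO-labelled library (0.71, 0.54 and 0.57 for replicates 1 to 3). Dst makes neuronal, muscle and epithelial forms from 41.2 kb of annotated exons, and counts over the whole gene do not separate them. Opposite-strand genes overlap 3.63% of these exonic bases.

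Plec (ENSMUSG00000022565, chromosome 15, 76170974 to 76232574, minus strand) had 843, 1064 and 1460 CPM in controls against 1964, 1645 and 1582 CPM in dKO-labelled libraries. The groups did not overlap, but control replicate 3 came close to the lowest of the other group. The fitted change came to 0.55 (log2, SE 0.19, edgeR adjusted p 0.0798), with an approximate 95% interval of 1.13- to 1.90-fold before adjustment. Plec passed the threshold without control replicate 3 (0.86), with DESeq2 (0.56) and without a filter (0.65), and with control replicate 3 as the only control its value was 0.19.

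Among the laminin chains, Lama3 (ENSMUSG00000024421, chromosome 18, 12333819 to 12583013, plus strand), for the α3 chain, had 215, 207 and 300.1 CPM in controls against 418, 431 and 439 CPM in dKO-labelled libraries. It rose by 0.76 on the log2 scale (SE 0.16, edgeR adjusted p 0.0134). The call was lost without control replicate 2 (0.67), without both control replicates 1 and 2 (0.46), and without dKO-labelled replicate 1 (0.83). Lamb3 (ENSMUSG00000026639, chromosome 1, 193207699 to 193343878, plus strand), for the β3 chain, was at 128, 124 and 180.02 CPM against 175, 213 and 282 CPM. Here the groups overlapped, since control replicate 3 was above dKO-labelled replicate 1. The log2 fold change of Lamb3 was 0.56 (SE 0.21, edgeR adjusted p 0.0928). It passed the threshold without control replicate 3 (0.83), with the replicate block (0.55) and without a filter (0.66), and it was 0.26 with control replicate 3 as the only control.

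The remaining members encode the subunits of the focal contact integrin. Itgb1 (ENSMUSG00000025809, chromosome 8, 128685654 to 128733200, plus strand), whose β1 subunit pairs with many α subunits, had 163, 133 and 153 CPM in controls against 263, 188 and 235 CPM in dKO-labelled libraries. It rose by 0.53 on the log2 scale (SE 0.15, edgeR adjusted p 0.0440). The call was lost in 8 of 16 alternatives, among them those without control replicate 1 (0.61) or 2 (0.46), without both (0.52), and without dKO-labelled replicate 1 (0.47) or 3 (0.55). Itga3 (ENSMUSG00000001507, chromosome 11, 95044474 to 95076801, minus strand), for the α3 subunit, was at 208, 168 and 198 CPM against 283, 239.7 and 256 CPM. These groups did not overlap, but the fitted change came to 0.37 (log2, SE 0.13, edgeR adjusted p 0.0931). The approximate 95% interval was 1.07- to 1.55-fold before adjustment. Without control replicate 3 Itga3 passed the threshold, at 0.47.

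**Figure D2:**
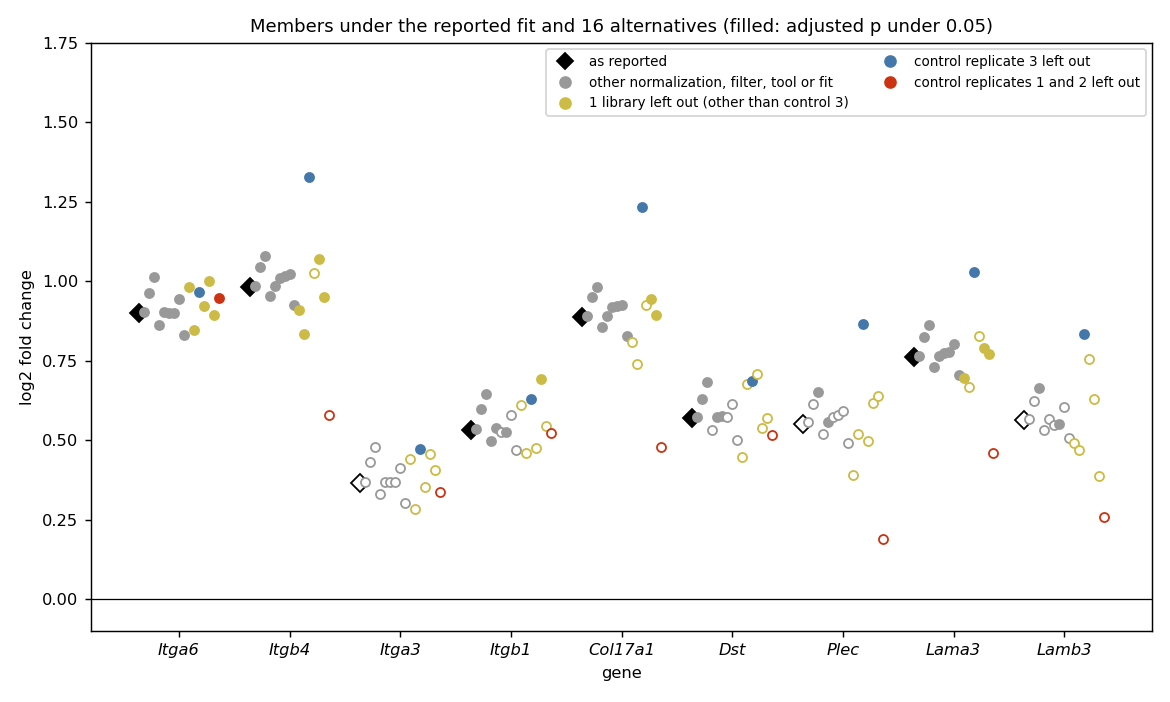
Log2 fold change of each member (y axis) under the reported fit (black) and 16 alternatives, filled where the adjusted p was under 0.05. All values lie above 0, leaving out control replicate 3 (blue) gives the highest values for Itgb4, Col17a1, Plec, Lama3 and Lamb3, and using it as the only control (red) gives the lowest ones for those genes, while Itga6 is filled throughout.

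The calls moved with single libraries. Leaving out control replicate 3, the control with little receptor-gene signal, brought all 9 members past the threshold, with 13.0% of all genes tested called higher in that fit. Keeping it as the only control left 1 of 9, Itga6, with 1.03% of all genes called higher. Without dKO-labelled replicate 1 it was again Itga6 alone, beside 1.47% of all genes. All 9 log2 fold changes stayed above 0 in each of the 16 alternatives.

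Levels of different genes were compared as CPM per kb of exon. Col17a1 was highest, at 332 ± 99.8 in controls against 645 ± 20.4 in dKO-labelled ones (SD, n = 3 each), and overlapped no other member. Itga6 followed at 82.5 ± 7.36 and 162 ± 12.7, then Plec at 62.0 ± 17.3 and 95.5 ± 11.3, and Itgb4 at 44.5 ± 13.2 and 92.3 ± 7.35 CPM per kb (SD, n = 3 each). In the controls these 3 neighbours overlapped in turn, and in the other group Itga6 stood clear of Plec while Plec and Itgb4 still overlapped. Itgb1, Dst and Itga3 lay together at 36.7, 34.5 and 33.5 CPM per kb in controls against 56.0, 53.8 and 45.5 in dKO-labelled ones, each overlapping the next. Lama3 and Lamb3 were lowest and overlapped each other, at 22.4 and 21.8 against 39.9 and 33.8 CPM per kb. The order of the 9 means was the same in both groups. Dst has the longest annotated exon set, so its level per kb is a lower estimate for any shorter form in use. This holds for Lama3 and the other members as well, so the order of levels rests on annotated exon lengths.

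Ratios of partner genes within a library do not depend on scaling. A total of 8 pairs were compared over the 6 libraries by a two-sided exact permutation test, which cannot give less than p = 0.1 with 3 against 3. Itga6 per Itga3, the α subunits of both laminin-binding integrins, was 2.49, 2.59 and 2.34 in controls against 3.40, 3.51 and 3.80 in dKO-labelled ones (counts per exonic kb). The groups did not overlap, and the log2 ratio was higher by 0.53 (exact permutation p = 0.1, adjusted over the 8 pairs 0.32). Col17a1 per Itgb4 was nearly constant, at 7.41, 7.48 and 7.49 against 7.05, 7.32 and 6.64, although both genes differed between groups. The groups lay apart here too, with a log2 difference of -0.09 (exact permutation p = 0.1, adjusted 0.32).

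In the other ratios given here the groups overlapped. Itga6 per Itgb4 was 2.31, 2.20 and 1.36 in controls against 1.82, 1.74 and 1.71 in dKO-labelled ones, so that control replicate 3 was the lowest of all. Lama3 per Lamb3 was 1.04, 1.03 and 1.03 in the controls and 1.47, 1.24 and 0.959 in the other group. The size of this ratio rests on annotated exon lengths (10.7 kb for Lama3, 6.6 kb for Lamb3) and is not a ratio of laminin chains. In this ratio dKO-labelled replicate 1, which had the least Lamb3 of its group, was the highest. Itgb4 per Itgb1 was 0.982, 1.06 and 1.59 against 1.44, 1.84 and 1.73. Itga3 per Itgb1 (0.900 to 0.924 against 0.770 to 0.909) and Dst per Plec (0.449 to 0.668 against 0.431 to 0.647) overlapped as well. Exact permutation p-values for these pairs were 0.2 to 1.0.

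**Figure D3:**
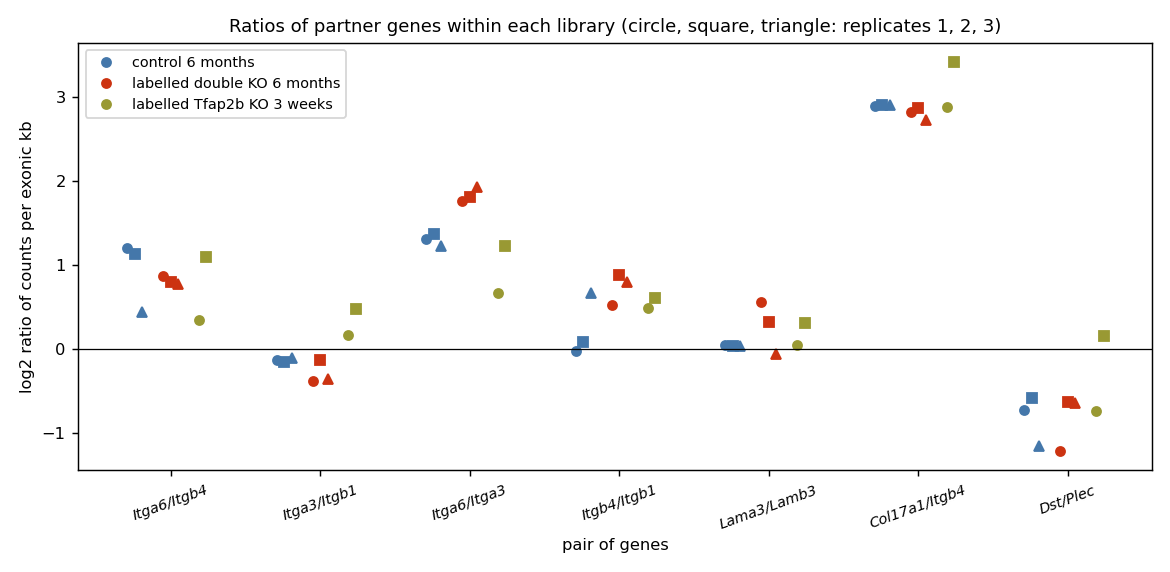
Log2 ratio of counts per exonic kb for 7 pairs of partner genes (x axis), with 1 symbol per library, coloured by group. Itga6/Itga3 is higher in all 3 red symbols than in all blue ones, Col17a1/Itgb4 is nearly level at 6 months, and the blue symbols of Lama3/Lamb3 coincide while the red ones spread.

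Of other genes of the adhesion zone and of basal keratinocytes, 49 in 5 lists were tested, and 9 rose while 4 fell. Among all genes tested 6.26% were called higher and 8.59% lower. Of the 9 that rose, 4 were in the basal keratinocyte list. Among 19 tested basement membrane genes 3 rose, Npnt and Col18a1 among them, 2 fell (Nid1 and Col4a6) and 14 did not pass, with a median log2 fold change of -0.02. The Col4a6 call, at -0.57 (edgeR adjusted p 0.0404), was lost in 10 of 16 alternatives, among them those without control replicate 2 (-0.54) or 3 (-0.43) or any single dKO-labelled library (-0.47, -0.64 and -0.50 for replicates 1 to 3). Npnt, for the integrin ligand nephronectin, rose from 10.7 ± 3.17 to 35.5 ± 1.84 CPM (SD, n = 3 each), up 1.63 on the log2 scale (SE 0.23, edgeR adjusted p 0.00278), and was called in all 16 alternatives. Col18a1, for collagen XVIII, rose by 0.97 (SE 0.19, edgeR adjusted p 0.0121). Its call was lost in 3 of 16 alternatives, among them those without dKO-labelled replicate 1 (0.99) and with all 8 libraries in one fit (1.01). Its value was 0.81 with control replicate 3 as the only control. The laminin chains of other trimers, Lama5, Lamb1, Lamb2 and Lamc1, had log2 fold changes of 0.13, 0.07, 0.02 and -0.02, none past the threshold. Col7a1, for the anchoring fibril collagen VII, was at 64.0, 68.0 and 168 CPM against 184, 201 and 215 CPM (log2 fold change 0.93, SE 0.34, edgeR adjusted p 0.101). It passed the threshold in 4 of 16 alternatives, without control replicate 3 (1.60), with DESeq2 (0.94), with the replicate block (1.07) and without a filter (1.01). Its value was 0.20 with control replicate 3 as the only control. Nid1, for the linker nidogen, fell from 2.66, 6.89 and 2.47 CPM to 1.38, 0.750 and 1.18 CPM (log2 fold change -1.81, SE 0.55, edgeR adjusted p 0.0428), and it lost the call in 10 of 16 alternatives, with -1.19 without control replicate 2. These are low counts, 32, 78 and 38 against 19, 11 and 21. Scaled to exon length, the receptor-gene background came to 30.4% and 24.7% of the Nid1 counts in control replicates 1 and 2. With this background subtracted the value was -1.63 and not past the threshold.

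The keratins to which plakins attach rose. Krt5 went from 2615 ± 248 to 5129 ± 828 CPM (log2 fold change 0.90, SE 0.16, edgeR adjusted p 0.00860, n = 3 each), a call lost with control replicate 3 as the only control (0.77), and Krt14 rose by 1.71 (SE 0.19, edgeR adjusted p 0.000969). Of the 7 basal keratinocyte genes 4 rose, these 2 with Tgfbi and Cav1. Krt15, for a keratin of basal and hair follicle stem cells, which is named here after its values were seen, had 728, 1164 and 1187 CPM in controls against 234, 673 and 330.3 CPM in dKO-labelled libraries, without overlap. Its log2 value of -1.39 (SE 0.39) just missed the threshold in edgeR (adjusted p 0.0513) and passed it in 8 of 16 alternatives, DESeq2 and limma-voom among them. Tgfbi, for a secreted integrin ligand, rose by 0.90 on the log2 scale (edgeR adjusted p 0.0430). The Tgfbi call was lost in 7 of 16 alternatives, among them those without any single library other than control replicate 3 (0.70 to 1.09) and with all 8 libraries in one fit (0.94). Its value was 0.45 with control replicate 3 as the only control. Set against the sum of Krt5 and Krt14 per kb, every member had a lower mean in the dKO-labelled libraries than in the controls. Without overlap this held for 6 of 9, but also for 75.0% of all genes tested, so the count is not particular to the members. Examples were Itga3 at 1.79% ± 0.319 against 0.978% ± 0.217 and Lamb3 at 1.14% ± 0.108 against 0.705% ± 0.0562, while groups overlapped for Itga6 (4.42% ± 0.844 against 3.47% ± 0.598), Itgb4 and Col17a1 (SD, n = 3 each). Of the 4 other plakin genes tested 1 fell, Macf1, the closest paralog of Dst, which had 1909, 1879 and 1994 CPM in controls against 1459, 1324 and 1269 CPM in dKO-labelled libraries. The fitted change came to -0.59 (log2, SE 0.13, edgeR adjusted p 0.0160), so that Dst and Macf1 went opposite ways. The Macf1 call was lost in 5 of 16 alternatives, among them those without any single dKO-labelled library (-0.60, -0.54 and -0.51) and with all 8 libraries in one fit (-0.54). Its value was -0.62 with control replicate 3 as the only control.

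The adaptors of focal contacts did not move together: of 12 tested, 2 rose, 1 fell and 9 did not pass, with a median log2 fold change of 0.14. Fermt1, for kindlin-1, which binds β integrin tails, rose from 30.6 ± 8.57 to 59.6 ± 3.83 CPM (log2 fold change 0.89, SE 0.20, edgeR adjusted p 0.0195, n = 3 each). The Fermt1 call was lost in 5 of 16 alternatives, among them those without control replicate 2 (0.86) or any single dKO-labelled library (0.89 to 0.98). The Fermt1 value was 0.53 with control replicate 3 as the only control. Parva, for α-parvin, rose by 1.10 (SE 0.22, edgeR adjusted p 0.0126), a call lost with control replicate 3 as the only control (1.31), and Pxn, for paxillin, fell by 0.72 on the log2 scale (SE 0.17, edgeR adjusted p 0.0236). The Pxn call was lost in 6 of 16 alternatives, among them those without control replicate 1 (-0.63) or any single dKO-labelled library (-0.77, -0.56 and -0.72). It was also lost with all 8 libraries in one fit (-0.67), and the value was -0.77 with control replicate 3 as the only control. Of the 7 genes tested in the list of other integrins, 6 integrin genes and Cd151, edgeR called none (2 at an unadjusted p under 0.05), with a median of -0.04, and DESeq2 called 1. Cd151, for the tetraspanin that accompanies laminin-binding integrins, was at 36.5 to 47.1 CPM against 47.4 to 67.6 CPM (log2 fold change 0.43, SE 0.18, edgeR adjusted p 0.141).

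**Figure D4:**
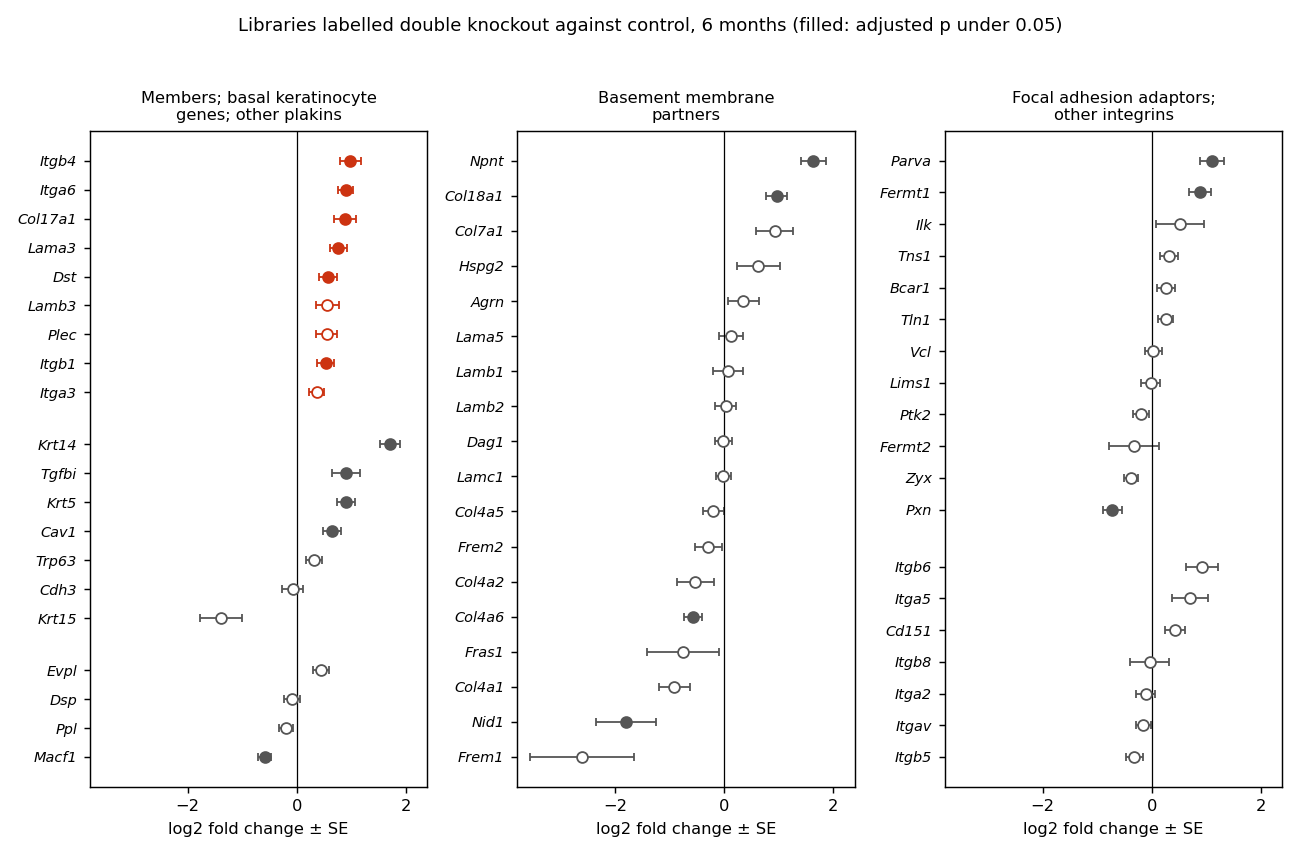
Log2 fold change with its standard error (x axis) for the members, in red, and genes of 5 partner lists, in grey, at 6 months, filled where the adjusted p was under 0.05. The 9 members all lie right of 0, between 0.37 and 0.98, whereas each partner list has genes on both sides.

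Several members are also made by other cells of skin, such as Schwann cells and endothelium for Itga6 and Itgb4, so the markers of those cells were summed. The 8 endothelial genes summed to 6.19 to 27.8 CPM in controls against 7.98 to 10.1 CPM in dKO-labelled ones, none of 5 tested was called by edgeR (0 at an unadjusted p under 0.05), and none was at 0 in all libraries of a group. The 7 Schwann cell genes summed to 236 to 337 against 142 to 197 CPM, and 2 of 6 tested fell while none rose. The 8 fibroblast genes summed to 127 to 285 against 87.8 to 160.3 CPM, with 3 of 8 lower. Those 3 were Col1a1, Col1a2 and Col3a1, at -2.22, -2.48 and -2.03 (log2). Over all 8 the median change was -2.07, and 5 were lower without overlap of the groups. Vim weighed most in the dKO-labelled sums, at 63.6 to 145 CPM, and did not pass the threshold (0.04). The 7 muscle genes summed to 5.27 to 15.7 against 1.88 to 3.20 CPM, with 1 of 2 tested lower. Myh4 was at 0 in all dKO-labelled libraries and in control replicate 3. Scaled to exon length, the receptor-gene background came to 30.3% and 40.0% of the endothelial counts and 19.8% and 46.9% of the muscle counts in control replicates 1 and 2. The 8 suprabasal keratinocyte genes summed to 11440 to 14141 against 12133 to 16107 CPM, with 1 higher, and the 7 basal ones to 5867 to 7253 against 10414 to 13548 CPM. Krt5 and Krt14 made up most of the basal sum in every library. Of the other basal genes Tgfbi and Cav1 were called higher, and Krt15 was at 728 to 1187 against 234 to 673 CPM. Trp63 and Cdh3 did not pass the threshold (log2 fold changes 0.32 and -0.08). The hair follicle list held 154 to 277 against 67.5 to 174 CPM with 1 of 8 lower, and the sebaceous list 746 to 915 against 196 to 237 CPM with 2 of 4 tested lower. Langerhans and other myeloid genes held 371 to 499 against 319 to 458 CPM with 1 of 6 lower. The part of these cell types in the members' differences was not tested.

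Both 3-week libraries labelled Tfap2b knockout are described without a test. Col17a1 was at 2322 and 2839 CPM and Itga6 at 627 and 886 CPM. Dst was at 2109.9 and 2873 CPM, above every control of 6 months, and the share of all genes that did so was not counted. Plec was at 1549 and 1141 CPM, Itgb4 at 383 and 323, Itga3 at 249.6 and 239.7, Itgb1 at 159 and 123, Lama3 at 269 and 365, and Lamb3 at 160.1 and 181 CPM. For 6 members (Itga6, Itgb4, Itgb1, Col17a1, Plec and Lama3) both libraries lay below every dKO-labelled library, as they did for 27.2% of all genes tested. The first of them also held 3073 CPM of the fibroblast list, 504 CPM of the endothelial list and 8438 CPM of the sebaceous list, against 144, 0.560 and 558 CPM in the second, and the part of this in its member values was not tested. Age, genotype and strain cannot be told apart here.

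By the profile over the 6 libraries at 6 months, the members were most like their own mean for Itgb4 (Pearson r = 0.99), Lama3 (0.99) and Col17a1 (0.98), and least for Dst (0.80) and Lamb3 (0.85). Each member is part of that mean, which raises its correlation. Outside the set, the 5 genes most like that mean among all genes tested were Pld2 (0.9989), Gm15372 (0.9971), Got2 (0.9964), AU015336 (0.9964) and Gm26020 (0.9963). Pld2, which encodes a phospholipase D, had 29.3, 28.1 and 42.2 CPM in controls against 77.05, 70.1 and 87.2 CPM in dKO-labelled libraries. Got2, for mitochondrial aspartate aminotransferase, was at 76.7, 72.4 and 92.2 against 130.4, 122 and 142 CPM. These correlations describe 6 libraries in 2 groups, share those libraries with the comparison, and were picked as the highest of many.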

How the data were processed

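Whole-number counts per gene were deposited by the authors for 49315 Ensembl genes in 21 files, of which the 8 with a total above 0 were used. Trimmomatic 0.36, STAR 2.5.2b and featureCounts of Subread 1.5.2 are named in the submitters' processing notes, with the builds GRCm38 and GRCh38. Strand and multi-mapping settings are not given in the sources used here, so reads of overlapping genes and close paralogs may be shared or lost. Symbols came from GENCODE M21 (99.3% of identifiers), and the members' coordinates in the files are those of M21 on GRCm38.

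Libraries were grouped by their titles. CPM are counts per 1000000 counts of a library, without further factors. Tests used edgeR 4.0.16 in R 4.3.3 on the 6 libraries of 6 months (filterByExpr, TMM, robust glmQLFit with a prior count of 2, glmQLFTest), with p-values adjusted by Benjamini-Hochberg across the 17755 tested genes and called below 0.05. The steps were tested on simulated data with changes larger than those of the members. How well changes of the members' size are found was not tested. Standard errors came from the unshrunken coefficient and the F statistic. There were 16 alternatives, with DESeq2 1.42.0 and limma 3.58.1 among them, and 1, with control replicate 3 as the only control, was added after seeing the data. Members, lists and tests were chosen with earlier results of these data known. Named beside the members were fixed partner genes and, per list, up to 3 called genes with the largest fold changes. The pattern search used log2 of TMM-scaled CPM plus 0.5. Of 131 listed genes 130 were found, and Eppk1 was not analysed here. One partner gene, its ratio and one marker gene are not reported here by name, but counts, sums and adjusted p-values over lists or pairs include them. Promoter sequences are RefSeq's for GRCm38.p6.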

Additional observations from a re-analysis of the deposited data

Results flagged for a closer look

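Dst and Itga3 stood above every 6-month control in both 3-week libraries labelled Tfap2b knockout, which enter no comparison. The share of all genes that did so was not counted, so whether this is particular to these genes cannot be told. The first of these libraries held 3073 CPM of the fibroblast list and 504 CPM of the endothelial list, against 144 and 0.56 CPM in the second. The lower value of Dst was 2109.9 CPM against at most 1614 CPM in the controls, and that of Itga3 was 239.7 CPM against at most 208 CPM. Age and genotype both differ between these libraries, and the differences were not tested. Groups of 3 are too small for the search for outlying samples.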

How the results depend on the processing

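The count of members past the threshold was 6 in the reported fit. It was 6 with median-ratio size factors, with total counts and with the replicate block, 8 without a filter, 7 with DESeq2, 5 with limma-voom or at least 10 counts in every library, and 4 with all 8 libraries in one fit or with the receptor-gene background subtracted. With 1 library left out it ranged from 1 (without dKO-labelled replicate 1) to 9 (without control replicate 3), with 3 without control replicate 1 and 2 without control replicate 2. With control replicate 3 as the only control it was 1, the lone control being assumed to vary like the other group. All genes called numbered 2637 (1111 higher, 1526 lower), and 4809 without a filter, 1729 with the replicate block, 1548 with all 8 libraries, 437 with control replicate 3 as the only control, and 668 to 7544 with 1 library left out. With total counts they split into 1376 higher and 1327 lower. Those called higher were 1111 of 17755 in the reported fit, 1137 with median-ratio size factors and 720 with the replicate block. They were 1653 with DESeq2, 1007 with limma-voom, 1941 of 42554 without a filter and 1051 of 14492 with at least 10 counts. With all 8 libraries they were 658 of 21591, and with the background subtracted 1038 of 17272. Without control replicate 1 they were 577 of 18298, and without control replicate 2 they were 448 of 18108. Without a filter the median over all genes was -0.56, against 0.68 over the members. Partner list genes called numbered 13, and 20 without a filter, 6 with all 8 libraries, 2 with control replicate 3 as the only control, and 6 to 21 with 1 library left out. The Itga6/Itgb4 difference (-0.12) was -0.36 when control replicate 3 was left out and 0.023 when control replicate 1 was, and that of Dst/Plec, which was -0.01, became -0.17 when control replicate 3 was left out, 0.04 without control replicate 1, 0.11 without control replicate 2 and 0.19 without dKO-labelled replicate 1. In the block fit Lamb3 passed the threshold (0.55) and Dst did not (0.57). Deviations of same-numbered libraries correlated at 0.03, -0.16 and -0.06 for replicates 1 to 3, and no dKO-labelled library correlated best with its own number. The labels state no pairing, and deviations from means of 3 libraries cannot tell whether same-numbered libraries were paired. The cause of these changes was not tested.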
